A study of Mus musculus with 8 samples.

Results

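The apolipoprotein genes Apoa1, Apoa2, Apoa4, Apob, Apoc1, Apoc2, Apoc3, Apoe, Apoh and Apom were followed through 4 genotypes of mouse embryo. They were found in the mRNA table by matching its Ensembl gene IDs to these symbols, and all 10 were present once among 29639 entries. Of these, 8 reached 1 FPKM (fragments per kilobase of transcript, scaled for sequencing depth) in at least 2 of the 4 columns, as did 13279 genes of the whole table. Apoa4 and Apoc3 did not.

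RNA came from whole embryos, for which the design text of the series gives embryonic day 12.5 throughout, although the sample titles of the knock-in embryos carry days that differ slightly between genotypes. In the knock-in embryos 3 polyadenylation cassettes, which end transcripts early, stood in the promoter of Gtl2 (Meg3), the first non-coding RNA gene of the maternally expressed chain in the imprinted Dlk1-Dio3 domain. The cassettes were inherited from the father in PKI, from the mother in MKI and from both parents in HOMO, and WT embryos carried none. The labels name 2 samples per genotype, but each table holds 1 column per genotype, so there is no measure of spread within a genotype and no difference given here was tested. The sources used here name neither the strain nor the sex of the embryos, nor whether a column joins libraries.

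The microRNA miR-127-3p, which is processed from the maternal transcripts of the domain, stood at 26139.5 RPM (reads scaled to the total of the small-RNA column) in PKI, 455 RPM in MKI and 794 RPM in HOMO, against 26481 RPM in WT, so both columns with a maternal insertion were low. The depth of the mRNA table is unknown. The MKI column stood apart in that table. In MKI 19.1% of kept genes were at least 2-fold lower than in WT on the log2(FPKM + 0.5) scale, against 1.45% in PKI and 0.783% in HOMO.

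Apolipoproteins are the protein parts of the particles that carry cholesterol, triglycerides and phospholipids in plasma. Apob is the structural protein of triglyceride-rich and low-density particles, Apoa1 and Apoa2 are the main proteins of high-density particles, and the small C proteins and Apoe move between particles and govern lipolysis and receptor uptake. In the embryo they are made mostly by hepatocytes of the fetal liver and by the endoderm of the visceral yolk sac, and Apoe also by macrophages and glia. The genes lie on 6 chromosomes. Apoa1, Apoc3 and Apoa4 are neighbours on chromosome 9 (GRCm38, RefSeq spans 46228630 to 46230469, 46233050 to 46235636 and 46240844 to 46243458). Apoc2, Apoc1 and Apoe are neighbours on chromosome 7 (19671579 to 19677941, 19689480 to 19692659 and 19696244 to 19701310). Apoa2 is on chromosome 1 (171221564 to 171226379), Apoh on chromosome 11 (108395297 to 108414396), Apom on chromosome 17 (35128997 to 35131801) and Apob near the start of chromosome 12 (7977629 to 8016839), the chromosome that also carries the Dlk1-Dio3 domain.

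The sequences just before annotated transcript starts are shown because the members fell into 2 sets in MKI. Each is the 150 bases upstream of the start of the first RefSeq window listed for the gene (GRCm38.p6), 5′ to 3′ in the direction of transcription. For Apoa2, with 2 windows, and Apoe, with 3, the start of this window lies inside the gene span given above, so the stretch printed does too, and for Apob the last bases of the stretch lie inside the span. Capitals mark the TATA box letters TATAAA and the HNF4A letters CAAAG on either strand, so that CTTTG stands for the second of these on the other strand. The first 3 belong to genes that were not lower in MKI than in WT.
Apoa1, chr9:46228480-46228629, plus strand: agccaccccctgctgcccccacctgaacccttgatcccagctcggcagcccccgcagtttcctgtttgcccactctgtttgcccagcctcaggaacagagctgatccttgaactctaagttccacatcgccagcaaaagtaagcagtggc
Apoa2, chr1:171224904-171225053, plus strand: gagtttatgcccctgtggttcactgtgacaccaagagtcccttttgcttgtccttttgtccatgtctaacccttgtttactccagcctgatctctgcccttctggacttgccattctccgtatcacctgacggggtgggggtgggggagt
Apob, chr12:7977527-7977676, plus strand: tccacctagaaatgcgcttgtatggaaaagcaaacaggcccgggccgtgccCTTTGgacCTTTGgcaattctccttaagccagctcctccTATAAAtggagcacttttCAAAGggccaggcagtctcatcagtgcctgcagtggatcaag

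The other 3 belong to genes that were at least 2-fold lower in MKI than in WT.
Apoe, chr7:19699189-19699338, minus strand: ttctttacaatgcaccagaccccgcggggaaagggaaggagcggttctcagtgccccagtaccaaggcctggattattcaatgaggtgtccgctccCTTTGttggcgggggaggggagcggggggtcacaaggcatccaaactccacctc
Apoc2, chr7:19677942-19678091, minus strand: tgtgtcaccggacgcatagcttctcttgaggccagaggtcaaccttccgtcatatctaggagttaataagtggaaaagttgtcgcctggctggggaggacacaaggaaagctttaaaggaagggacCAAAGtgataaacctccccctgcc
Apom, chr17:35131802-35131951, minus strand: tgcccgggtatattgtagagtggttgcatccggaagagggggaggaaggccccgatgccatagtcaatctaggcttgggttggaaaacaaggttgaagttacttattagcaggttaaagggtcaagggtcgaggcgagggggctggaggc

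In Apob a TATAAA began 60 bases before the start of the window's transcript, with CAAAG, the core of many binding sites of the liver regulator HNF4A, at 99, 91 and 42 bases. Apoc2 held CAAAG 24 bases before its start, and Apoe held it at 54 bases. The printed stretches of Apoa1, Apoa2 and Apom held none of these letters. Over whole windows of 300 bases, which 8 of the 10 genes have in the table, CAAAG occurred in 5 members and in 54.0% of 27025 promoters. TATAAA occurred in 2 members, Apoa2 and Apob, both of them not lower in MKI, and in 14.2% of promoters. GGGCGG, the GC box, occurred in no member and in 35.9% of promoters. CAAAGTCCA, a longer HNF4A core that contains CAAAG, occurred in no member and in 0.477% of promoters. The 2 sets were not separated by any of these letters.

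**Figure D1:**
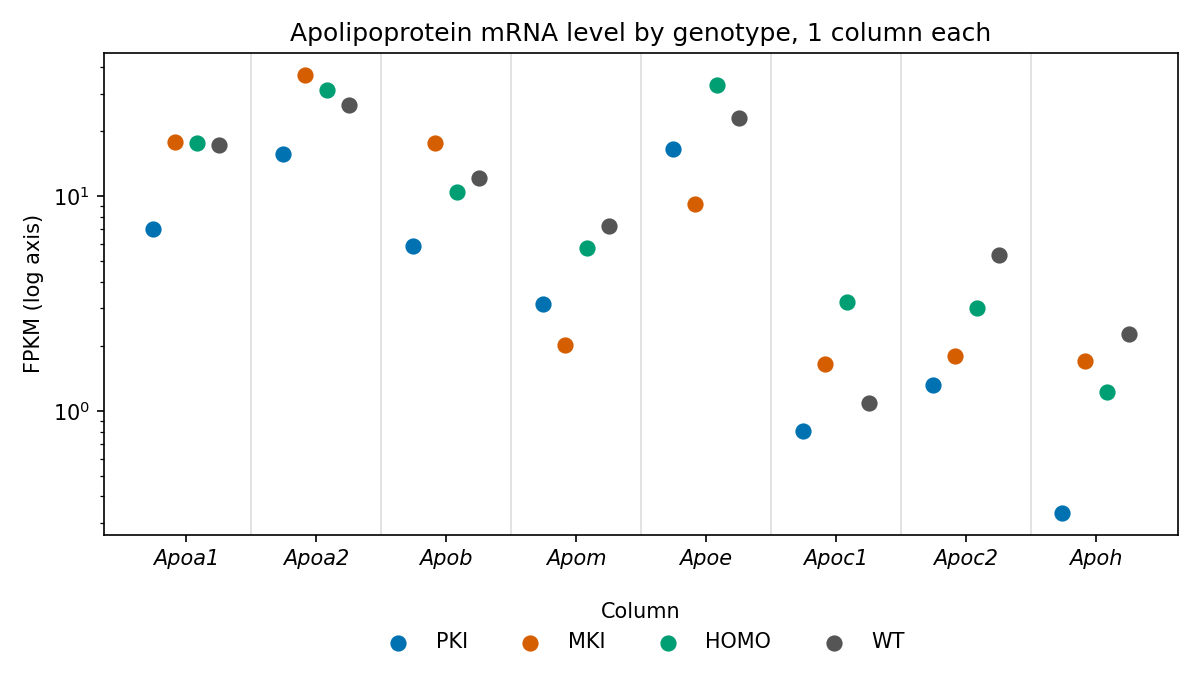
Level of the 8 apolipoprotein genes at or above the expression filter, in FPKM on a log axis, with 1 point for each genotype column and no error since there is 1 column per genotype. PKI lies below WT for every gene, and the order of MKI, HOMO and WT differs from gene to gene; Apoa4 and Apoc3, listed at 0 in at least 1 column, are not drawn.

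Among the proteins of high-density particles, Apoa1, which forms the particle and activates the enzyme LCAT, stood at 7.02 FPKM in PKI, 17.9 FPKM in MKI and 17.7 FPKM in HOMO, against 17.3 FPKM in WT. MKI and HOMO stood at 104% and 102% of WT and PKI alone was low, at 40.5% of WT. Apoa2, the second protein of these particles, stood at 15.7 FPKM in PKI, 36.7 FPKM in MKI and 31.3 FPKM in HOMO, against 26.7 FPKM in WT. It was the highest member in MKI and in WT. Apom, a lipocalin that carries sphingosine-1-phosphate on high-density particles, stood at 3.13 FPKM in PKI, 2.02 FPKM in MKI and 5.70 FPKM in HOMO, against 7.28 FPKM in WT. Unlike Apoa1 and Apoa2, Apom was lowest in MKI.

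Apob, the structural protein of very-low-density and low-density particles, stood at 5.88 FPKM in PKI, 17.6 FPKM in MKI and 10.4 FPKM in HOMO, against 12.2 FPKM in WT, with MKI highest and PKI lowest. Apoe, the ligand through which remnant particles bind receptors of the LDL receptor family, stood at 16.6 FPKM in PKI, 9.16 FPKM in MKI and 32.8 FPKM in HOMO, against 23.1 FPKM in WT. It was the highest member in PKI and HOMO and only the fourth highest in MKI.

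The small regulators of lipolysis differed from each other. Apoc1, which slows lipolysis and particle uptake, stood at 0.808 FPKM in PKI, 1.66 FPKM in MKI and 3.22 FPKM in HOMO, against 1.09 FPKM in WT. Apoc2, the cofactor that lipoprotein lipase needs, stood at 1.31 FPKM in PKI, 1.79 FPKM in MKI and 3.00 FPKM in HOMO, against 5.30 FPKM in WT. HOMO was thus highest for Apoc1 and WT for Apoc2. Apoc3, an inhibitor of lipoprotein lipase, was listed at 0 in PKI, MKI and WT and at 0.604 FPKM in HOMO. Apoa4, a protein of intestinal particles, was listed at 0 in PKI and stood at 0.0164 FPKM in MKI and 0.0119 FPKM in HOMO, against 0.0471 FPKM in WT. A value of 0 can be a failed estimate, and these genes entered no comparison except in the alternative without a filter. Apoh (beta-2-glycoprotein I), a plasma protein that binds anionic phospholipids, stood at 0.335 FPKM in PKI, 1.70 FPKM in MKI and 1.23 FPKM in HOMO, against 2.27 FPKM in WT, and had the widest spread of the 8 kept members, 6.80-fold between WT and PKI. The narrowest was that of Apoa2, 2.33-fold between MKI and PKI.

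PKI embryos carry the cassettes on the paternal chromosome, where Gtl2 is silent, and were compared with WT. All 8 kept members were lower in PKI than in WT, by a median of -1.05 on the log2(FPKM + 0.5) scale with a range from -1.73 to -0.28. Over all kept genes the median was -0.07 and 59.5% were lower. At least 2-fold lower were 4 of the 8, Apoh (-1.73), Apoc2 (-1.68), Apoa1 (-1.24) and Apom (-1.10), where 1.45% of kept genes were. Apob lay just inside the 2-fold line at -0.99, and Apoa2 (-0.74), Apoe (-0.47) and Apoc1 (-0.28) were closer to WT. No member was 2-fold higher, where 0.7% of kept genes were. Apoc1 and Apoh were below 1 FPKM in PKI, so the low end of their differences is compressed by the added 0.5. In whole-embryo RNA, fewer cells of a type and less RNA per cell cannot be told apart.

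Other genes of hepatocytes were lower in PKI as well. Counts of genes lower in PKI are to be read against all kept genes, of which 59.5% were lower and 1.45% at least 2-fold lower. From a list of 27 hepatocyte genes 21 were kept, and all 21 were lower in PKI than in WT, 17 of them at least 2-fold, with a median of -1.33 and a range from -1.84 (Ambp) to -0.19 (Serpinc1). The summed level of the list was 289 FPKM in PKI, 1315 FPKM in MKI and 978 FPKM in HOMO, against 801 FPKM in WT. In every column most of this sum came from albumin (Alb) and Afp, so it says little of the other genes. The liver microRNA miR-122-5p, from the separate small-RNA libraries, was at 2695 RPM in PKI, 3979 RPM in MKI and 4869 RPM in HOMO, against 3587 RPM in WT, which is 75.1% of WT in PKI. All 12 genes of a fetal liver erythroid list were also lower in PKI, 7 of them at least 2-fold (median -1.12). Their part in the apolipoprotein differences was not tested. Of 16 markers of visceral yolk sac endoderm, which makes the same apolipoproteins, 6 were kept and all 6 were lower in PKI (median -0.54, 1 at least 2-fold). Their summed level was 49.0 FPKM in PKI, 60.5 FPKM in MKI and 52.8 FPKM in HOMO, against 58.5 FPKM in WT, most of it from Selenop, which many tissues express. The yolk sac receptor gene Amn was listed at 0 in PKI and MKI and Cubn did not exceed 0.38 FPKM in any column. Of 10 intestinal markers 2 were kept, Gata4 and Epcam, which other tissues also express. The sum of the list was 12.4 FPKM in PKI, 8.16 FPKM in MKI and 9.14 FPKM in HOMO, against 10.8 FPKM in WT, of which Epcam alone gave 7.82 FPKM in PKI, 6.08 FPKM in MKI and 4.55 FPKM in HOMO, against 4.31 FPKM in WT. Cdx1 was listed at 0 in PKI, MKI and HOMO.

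MKI embryos carry the cassettes on the maternal chromosome, from which Gtl2 is transcribed, and were compared with WT. The members parted. Apom (-1.62), Apoc2 (-1.34) and Apoe (-1.29) were at least 2-fold lower in MKI, while Apob (0.51), Apoa2 (0.45) and Apoc1 (0.44) were higher by less than 2-fold, Apoa1 was level (0.05) and Apoh lower by less than 2-fold (-0.34). Thus 3 of 8 were 2-fold lower, against 19.1% of kept genes, and 4 of 8 were lower at all, against 55.4%. No member was 2-fold higher, against 1.22% of kept genes. The median of the members was -0.14 and that of all kept genes -0.11. Under quantile normalization the median over all kept genes was 0.14, that of the members was 0.13, and Apoc2 lay inside the 2-fold line at -0.89; the split of all genes past 2-fold was then 1452 lower and 642 higher, against 2532 lower and 162 higher without it.

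**Figure D2:**
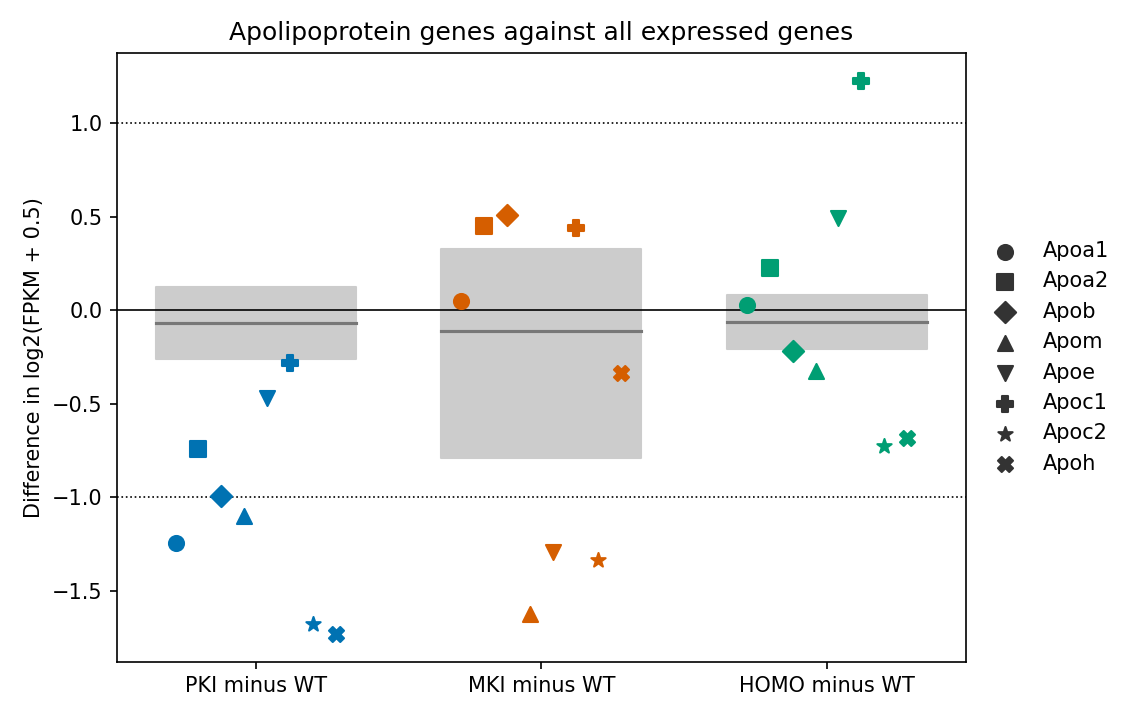
Difference of PKI, MKI and HOMO from WT in log2(FPKM + 0.5), with 1 symbol per apolipoprotein gene, the middle 50% of all 13279 kept genes as a grey box with its median as a line, and 2-fold as dotted lines. The PKI points all lie below the grey box, the MKI points spread from -1.62 to 0.51 over a much taller box, and the HOMO points lie between the dotted lines except Apoc1 at 1.23.

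Hepatocyte genes lay on both sides of WT in MKI, as all kept genes did. Of the 21 kept, 11 were higher and 10 lower than WT (median 0.06), where 55.4% of kept genes were lower. Albumin (Alb) was at 542 FPKM in MKI, against 205 FPKM in WT, and Afp, its fetal counterpart, at 457 FPKM against 292 FPKM in WT. At least 2-fold lower were 4 of the 21, a share near the 19.1% of kept genes. Among them were Ahsg (1.82 FPKM in MKI, against 5.94 FPKM in WT) and Vtn (4.68 FPKM in MKI, against 13.5 FPKM in WT). Macrophages are another source of Apoe. All 12 kept genes of a list of 14 macrophage markers were lower in MKI than in WT, where 55.4% of kept genes were. At least 2-fold lower were 3 of the 12, a share near the 19.1% of kept genes. The summed level of the list was 42.2 FPKM in PKI, 22.8 FPKM in MKI and 42.3 FPKM in HOMO, against 37.6 FPKM in WT. No marker of this list was listed at 0. Among 9 genes of radial glia the median in MKI was 0.18, with Hes5 at least 2-fold lower. The part of either cell type in the level of Apoe was not tested.

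Gene length moved with the MKI column. Over 12333 kept genes with a RefSeq span, Spearman's rho between span and the MKI minus WT difference was 0.34, against -0.28 for PKI and -0.15 for HOMO. These are correlations across genes, which share their libraries and are not replicates. Among the 4111 genes with the shortest spans, up to 14.6 kb, the median difference in MKI was -0.59 and 33.3% of genes were at least 2-fold lower. These genes include 6 of the 8 kept members, and 3 of these 6 were at least 2-fold lower. Apoa1 (1.84 kb), Apoc1 (3.18 kb) and Apoa2 (4.82 kb) are as short as Apom (2.81 kb), Apoe (5.07 kb) and Apoc2 (6.36 kb), yet lay above the WT level. In PKI the same genes had a median of 0.03, with 1.39% of genes at least 2-fold lower. Of the 6 short members Apoa1 (-1.24), Apoc2 (-1.68) and Apom (-1.10) were at least 2-fold lower in PKI. All 6 were lower at all, and the share of short genes lower at all was not computed. The part of gene length in the differences was not tested.

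**Figure D3:**
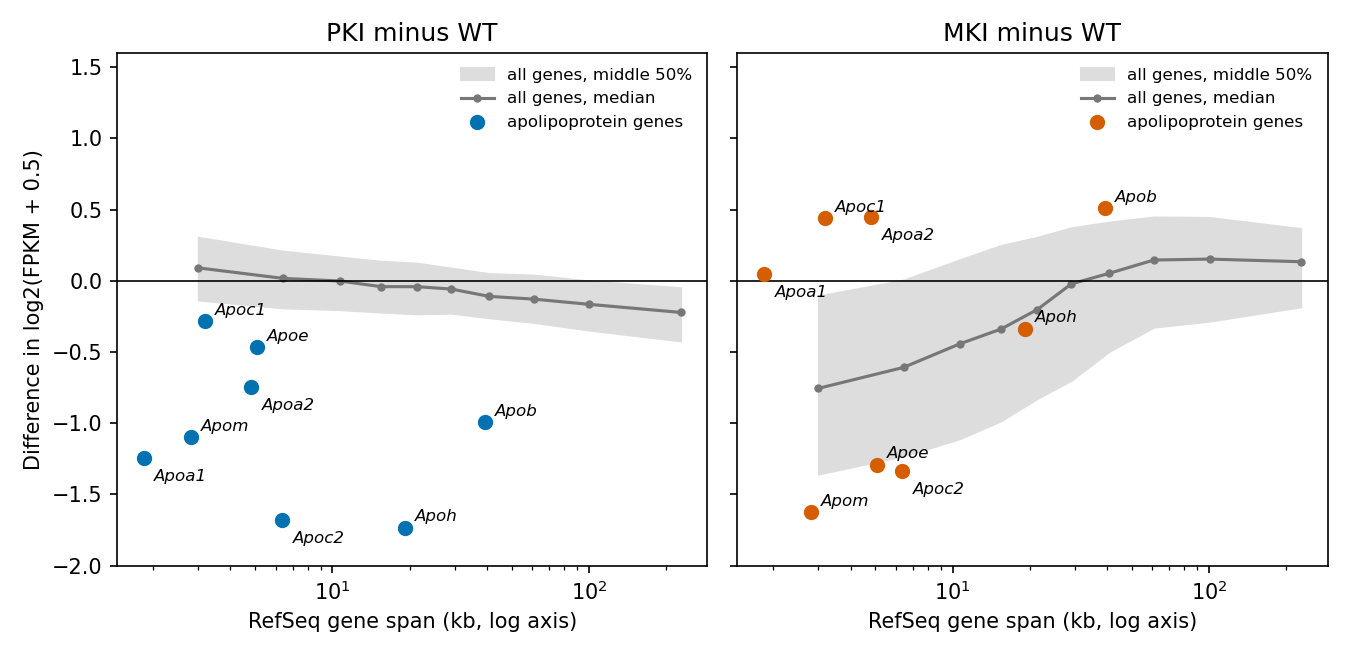
Difference from WT in log2(FPKM + 0.5) against RefSeq gene span in kilobases on a log axis, for PKI and for MKI, with each kept apolipoprotein gene as a labelled point and all kept genes in 10 bins of span as a grey line (median) and band (middle 50%). In MKI the grey line climbs with span and short members lie on both sides of it, while in PKI every member lies below the band.

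HOMO was compared with WT to see both insertions together. The members lay near WT, with a median of -0.10 and a range from -0.73 to 1.23, and 4 of 8 were lower where 61.5% of kept genes were. Apoc1 was 2.96-fold higher in FPKM in HOMO than in WT. On the log2(FPKM + 0.5) scale its difference was 1.23. It was the only kept member past 2-fold on that scale, where 0.67% of kept genes were 2-fold higher. Its levels, 3.22 FPKM in HOMO against 1.09 FPKM in WT, are low. Apoe was at 142% of WT (0.49), Apoa2 at 117% (0.23) and Apoa1 at 102% (0.03). Apob (-0.22), Apom (-0.33), Apoh (-0.68) and Apoc2 (-0.73) were lower, none of them 2-fold, and 0.783% of kept genes were 2-fold lower. The 21 hepatocyte genes had a median of 0.07 and none passed 2-fold.

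The levels were next set against the median hepatocyte gene of the same column, which stood at 4.01 FPKM in PKI, 9.30 FPKM in MKI and 7.53 FPKM in HOMO, against 7.35 FPKM in WT. On this scale the median member moved by -0.25 in PKI, -0.46 in MKI and -0.13 in HOMO relative to WT, where the PKI median without this step was -1.05. The median level is that of a single gene in each column, Fgg in PKI, HOMO and WT and Fgb in MKI. In log2(FPKM + 0.5) it was 2.17 in PKI and 2.97 in WT. Taken gene by gene, the hepatocyte genes had a median difference of -1.33 in PKI, lower than the -1.05 of the members. The sign of the -0.25 in PKI, and the shifts below, therefore depend on the choice of reference. Apoa2 stayed within 0.19 of its WT ratio, with shifts of 0.05 for PKI, 0.13 for MKI and 0.19 for HOMO. Apoh lay below the hepatocyte median in WT too, and its log2 ratio to that median shifted from WT by -0.94 in PKI, -0.66 in MKI and -0.71 in HOMO. The ratio of Apoc2 shifted from WT by -0.88 in PKI, -1.66 in MKI and -0.76 in HOMO. In MKI the ratios of Apom and Apoe shifted by -1.95 and -1.61, while that of Apoe shifted by 0.33 in PKI and 0.46 in HOMO. Apoc1 lay below the hepatocyte median in all 4 columns, and its ratio shifted from WT by 0.52 in PKI, 0.12 in MKI and 1.20 in HOMO. A ratio within a column shows unequal change and does not say which side changed.

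**Figure D4:**
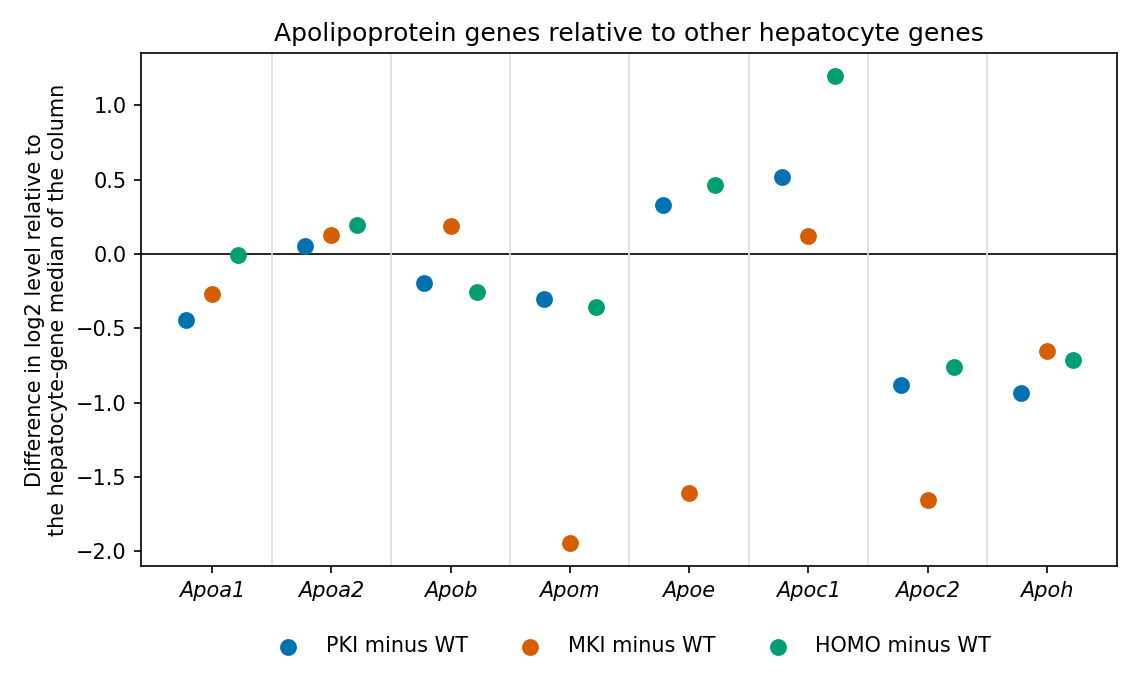
Log2 level of each kept apolipoprotein gene relative to the median of 21 hepatocyte genes in the same column, as the difference of PKI, MKI and HOMO from WT. Apoa2 stays within 0.19 of 0 in all 3 columns, whereas Apom, Apoe and Apoc2 reach -1.95, -1.61 and -1.66 in MKI and Apoc1 reaches 1.20 in HOMO.

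The maternal insertion can be read on each paternal background from pairs that share no column. In HOMO against PKI all 8 members were higher in HOMO, by a median of 0.97 and a range from 0.77 (Apom) to 1.51 (Apoc1), where 51.1% of kept genes were higher. At least 2-fold higher were 3, Apoc1, Apoa1 (1.27) and Apoh (1.05), where 1.55% of kept genes were, and none was 2-fold lower, where 1.32% were. MKI against WT, as given above, had 4 higher and 4 lower. Apoa1, Apoa2, Apob and Apoc1 were thus higher in both pairs, while Apoc2, Apoe, Apoh and Apom had opposite signs. Opposite signs were also found for 62.1% of all kept genes. No member was 2-fold lower or 2-fold higher in both pairs. HOMO against PKI uses the column in which all 8 members were lower than WT (median -1.05), while HOMO against WT had a median of -0.10. The count of 8 higher in HOMO is therefore not separate from the low values of PKI.

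The paternal insertion was read in the same way. PKI against WT had all 8 members lower. HOMO against MKI, the pair with a maternal insertion throughout, had 4 lower and 4 higher, a median of 0.30, and 47.6% of kept genes lower. Apob (-0.73), Apoh (-0.35), Apoa2 (-0.23) and Apoa1 (-0.02) were lower in HOMO than in MKI, none of them 2-fold, while 3.64% of kept genes were. Apoe (1.78) and Apom (1.3) were at least 2-fold higher, where 19.7% of kept genes were, and Apoc1 (0.79) and Apoc2 (0.61) were higher by less.

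**Figure D5:**
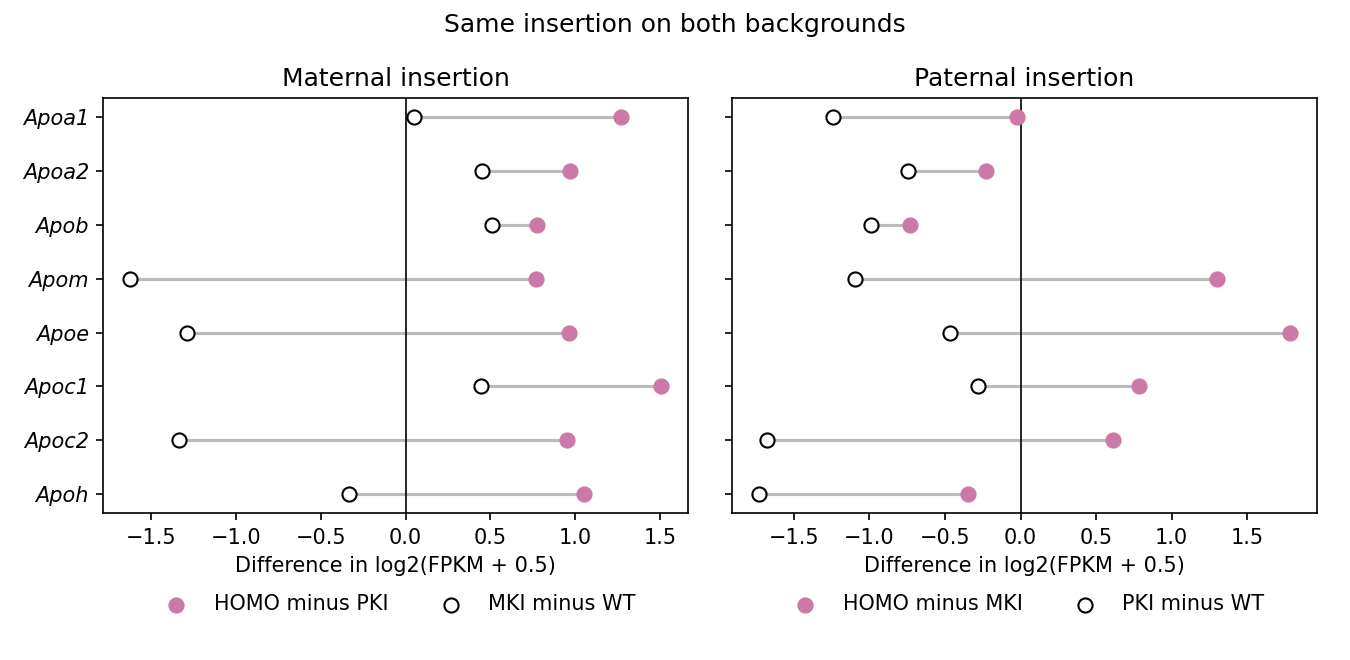
Difference in log2(FPKM + 0.5) for the maternal insertion (HOMO minus PKI and MKI minus WT, left) and the paternal insertion (HOMO minus MKI and PKI minus WT, right), with 1 row per kept apolipoprotein gene and a line joining the 2 differences. On the left all HOMO minus PKI points lie at 0.77 or above while Apom, Apoc2 and Apoe lie at -1.62, -1.34 and -1.29 in MKI minus WT. On the right Apob has both points below -0.7, and Apoe and Apom change from below 0 in PKI minus WT to 1.78 and 1.3 in HOMO minus MKI.

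Set directly against each other, MKI and PKI differed in Apoh by 5.08-fold in FPKM and in Apob by 2.99-fold, both higher in MKI. On the log2(FPKM + 0.5) scale the differences were 1.40 for Apoh and 1.5 for Apob, and which of them was larger depended on the pseudocount, since Apoh was at 2.05 and Apob at 1.56 with 0.1. With Apoa1 (1.29) and Apoa2 (1.19), 4 of 8 members were at least 2-fold higher in MKI, against 2.55% of kept genes. Apoe (-0.82) and Apom (-0.53) were lower in MKI, neither of them 2-fold, against 16.6% of kept genes. In all 6 of 8 members were higher in MKI, against 48.2% of kept genes. This comparison uses the same PKI column again.

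Neighbouring genes did not move together throughout. In the chromosome 7 group, Apoe was 20.5 times the level of Apoc1 in PKI, 5.52 times in MKI and 10.2 times in HOMO, against 21.2 times in WT. Apoc2 stood at 1.63 times the level of Apoc1 in PKI, 1.08 times in MKI and 0.932 times in HOMO, against 4.87 times in WT. In the chromosome 9 group Apoa1 carried almost the whole signal, 7.02 of 7.07 FPKM in PKI, 17.9 of 17.9 FPKM in MKI and 17.7 of 18.3 FPKM in HOMO, against 17.3 of 17.4 FPKM in WT, when Apoa5 is counted with Apoc3 and Apoa4. Apoe stood at 2.36 times the level of Apoa1 in PKI, 0.511 times in MKI and 1.86 times in HOMO, against 1.34 times in WT.

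Genes that assemble, take up and remodel lipoproteins are given from lists of their known roles. Counts of genes 2-fold lower in MKI are to be read against the 19.1% of all kept genes. Of 10 kept genes of synthesis and assembly none passed 2-fold in the PKI or HOMO comparison with WT. Mttp, which loads lipid onto Apob, was at 2.89 FPKM in PKI, 5.86 FPKM in MKI and 4.49 FPKM in HOMO, against 5.16 FPKM in WT, the same order of columns as for Apob. In MKI 2 of the 10 were at least 2-fold lower, a share near that of all kept genes, namely Dgat2, an enzyme of triglyceride synthesis (1.35 FPKM, against 3.61 FPKM in WT), and Pla2g12b (0.324 FPKM, against 1.37 FPKM in WT). Among 16 kept receptors and uptake genes all 16 were lower in PKI (median -0.41), where 59.5% of all kept genes were. In MKI those furthest past 2-fold were the 4 genes Lsr, Scarb1, Lrp5 and Stab1, all lower, among them the high-density lipoprotein receptor gene Scarb1 (2.92 FPKM, against 9.64 FPKM in WT). None passed 2-fold in HOMO.

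Of 8 kept genes of plasma lipases, transfer proteins and efflux, none passed 2-fold in PKI or HOMO, and 3 were at least 2-fold lower in MKI, Pltp (2.45 FPKM, against 7.91 FPKM in WT), Angptl4 and Lmf1. Lipoprotein lipase (Lpl) was at 4.42 FPKM in PKI, 5.46 FPKM in MKI and 3.78 FPKM in HOMO, against 5.43 FPKM in WT. Of 14 kept regulators of apolipoprotein transcription none passed 2-fold in PKI or HOMO, and 8 were at least 2-fold lower in MKI. These included Nr2f6 (2.13 FPKM, against 13.5 FPKM in WT) and Cebpa (0.221 FPKM, against 1.95 FPKM in WT). The liver X receptor gene Nr1h2, whose product activates Apoe transcription in macrophages, was among them too (1.57 FPKM, against 11.6 FPKM in WT). The related gene Nr1h3, below the filter, was at 0.905 FPKM in MKI, against 0.970 FPKM in WT. Hnf4a, a main activator of hepatic apolipoprotein genes, was at 1.14 FPKM in PKI, 2.07 FPKM in MKI and 2.44 FPKM in HOMO, against 2.53 FPKM in WT (log2 differences -0.88, -0.24 and -0.04). The part of any regulator in the apolipoprotein differences was not tested.

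Likeness to other genes was measured as Euclidean distance over the 3 log2 differences from WT, among 6662 named genes with at least 10 FPKM in 1 column or more. Closest to the median of the 8 members were Ncam1 (distance 0.08), Igf2r (0.12), Dner (0.13), Rab6b (0.14) and Car2 (0.19), followed by Ina, Tnc, Soga3, Gnao1 and Nell2 (0.27). None of these genes is on the hepatocyte list. Closest to Apoa1 were Serpina6 and Rbp4, both at 0.23 and both on the hepatocyte list, and Reln (0.30). Closest to Apob were Dcx (0.14), Rhag and Ptprz1 (0.16 each). Rhag is on the fetal liver erythroid list and Ptprz1 on the radial glia list. Closest to Apoe were Grina (0.05), Hist1h4m (0.06), a histone gene with near-identical copies and therefore uncertain, and Ppih (0.18). The distance rests on 4 columns.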

How the data were processed

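RNA of whole embryos was selected with oligo(dT) beads and the second strand was marked with dUTP before paired-end reading, per the labels' protocols. The submitters' processing notes name cutadapt 1.9, HISAT2 2.0.4, StringTie 1.3.4d and GRCm38. The deposited mRNA values, made by the authors, were taken as FPKM because StringTie is the quantifier named, values are not whole and column sums differ. The deposited microRNA values are RPM, since each column sums to 1000000; only 2 microRNAs were used. The long non-coding table was not used here.

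Of 22036 Ensembl IDs 22022 matched a symbol, and entries of 1 symbol were summed. Genes at 1 FPKM or more in at least 2 columns were kept, and differences are in log2(FPKM + 0.5), which understates changes of low genes. The design planned limma where libraries had columns. With 1 column per genotype no spread could be estimated, and genes were counted at 2-fold without a test. The rule for named genes took all 10 members, from each other list at most the 4 genes furthest past 2-fold in a comparison, and the nearest profiles. Further genes of the lists (among them Alb, Afp, Mttp, Lpl, Hnf4a, Selenop, Apod, Clu and Apol8) were named after their values were seen. Some genes of the lists are not reported here. The members and lists were chosen with earlier results of these data known. Alternatives were pseudocounts of 0.1 and 1, no filter, 5 FPKM, quantile normalization and a shift of column medians to 0. Steps were tested on simulated data with Python 3.11.15, pandas 2.3.3 and SciPy 1.17.1. Promoter windows and spans come from RefSeq GRCm38.p6.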

Additional observations from a re-analysis of the deposited data

Results flagged for a closer look

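The same insertion went with opposite differences, each at least 1.5-fold, on its 2 backgrounds for 3 genes, and the difference between backgrounds was not tested because each genotype has 1 column. The share of all kept genes that meet this rule was not computed. Opposite signs of any size were found for 62.1% of kept genes for the maternal insertion and 53.0% for the paternal one, and for 4 of 8 members in each. For the maternal insertion, Apom was 0.77 higher in HOMO than PKI but -1.62 in MKI against WT, a gap of 2.40 on the log2 scale. Apoc2 was 0.95 in HOMO against PKI and -1.34 in MKI against WT, a gap of 2.29. Apoe was 0.96 in HOMO against PKI and -1.29 in MKI against WT, a gap of 2.25. For the paternal insertion, Apom was 1.3 in HOMO against MKI and -1.10 in PKI against WT, and Apoc2 was 0.61 in HOMO against MKI and -1.68 in PKI against WT, with the same gaps of 2.40 and 2.29, since both gaps are formed from the same 4 values.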

How the results depend on the processing

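No paired analysis was possible because the columns carry no replicate number. Leaving out a replicate was not run for the same reason. A difference was read as past or inside 2-fold, and a count as moved when it changed by over 1.5 times; the cause of a move was not tested unless it follows from fewer genes. Of 294 single-gene values under the alternatives, 286 stayed on their side of 2-fold and kept their sign, 4 came to lie past it, 3 came to lie inside it and 1 changed sign, Apoh in MKI against WT, at 0.13 under quantile normalization. The median member in PKI against WT, -1.05, was -0.97 with a pseudocount of 1, -0.87 without a filter, -0.99 at 5 FPKM, -0.97 under quantile normalization and -0.98 with medians shifted to 0. That in MKI against WT, -0.14, was -0.042 without a filter, 0.049 at 5 FPKM and 0.13 under quantile normalization, and at 5 FPKM, with 5 members left, HOMO against WT was 0.028 and HOMO against MKI -0.021. That in MKI against PKI, 0.96, was 1.08 with a pseudocount of 0.1 and under quantile normalization, 1.19 at 5 FPKM, 1.01 with medians shifted to 0, 0.79 with a pseudocount of 1 and 0.53 without a filter, and that in HOMO against PKI, 0.97, was 1.06 with a pseudocount of 0.1. At 5 FPKM, members past 2-fold fell to 2 lower in PKI against WT (4 before) and 0 higher in HOMO against WT (1 before). Those higher in HOMO against PKI fell to 1 (3 before). Without a filter 2 were higher in HOMO against WT. The added one was Apoc3, listed at 0 in WT, so its place past 2-fold rests on the pseudocount. Under quantile normalization 1 member was higher in HOMO against MKI (2 before).

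Counts over all kept genes moved more. With a pseudocount of 0.1, 349 were 2-fold lower in PKI against WT (193 before), 158 lower in HOMO against WT (104) and 327 higher in HOMO against PKI (206); with 1 they were 113 lower in PKI against WT and 135 higher in HOMO against PKI. Without a filter 154 were higher in PKI against WT (93), 337 in MKI against WT (162), 161 in HOMO against WT (89) and 579 in MKI against PKI (339), and 184 were lower in HOMO against WT and 732 in HOMO against MKI (484). At 5 FPKM 79 were lower and 48 higher in PKI against WT, 86 higher in MKI against WT, 40 lower and 45 higher in HOMO against WT, 303 lower in HOMO against MKI, 97 lower and 87 higher in HOMO against PKI (175 and 206) and 170 higher in MKI against PKI. Under quantile normalization 1452 were lower and 642 higher in MKI against WT (2532 and 162), 1075 lower and 1711 higher in HOMO against MKI (484 and 2615), and 1444 lower and 736 higher in MKI against PKI (2198 and 339); with medians shifted to 0, 286 were higher in MKI against WT. An expression filter over PKI, HOMO and WT alone, chosen after seeing the data, left the member counts of the 3 comparisons without MKI as they were. With the depth of the mRNA table unknown, levels near 1 FPKM, as of Apoc1 and Apoh, carry an error that cannot be given.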

Other observations

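Of 11 other apolipoprotein genes 3 reached the filter, and none passed 2-fold against WT in log2(FPKM + 0.5) in any knock-in column. Apod, a lipocalin of mesenchyme and nervous tissue, stood at 5.62 FPKM in PKI, 5.20 FPKM in MKI and 3.04 FPKM in HOMO, against 3.57 FPKM in WT, and so was higher in PKI than in WT, the side opposite to the 8 members described above. Clu (apolipoprotein J), a secreted chaperone, stood at 3.16 FPKM in PKI, 4.26 FPKM in MKI and 5.45 FPKM in HOMO, against 5.63 FPKM in WT. Apol8 stood at 0.765 FPKM in PKI, 1.08 FPKM in MKI and 0.850 FPKM in HOMO, against 1.68 FPKM in WT, so that its FPKM in PKI, without the added 0.5, was less than 0.5 times that in WT. Apoa5 and Apoc4, the remaining genes of the chromosome 9 and chromosome 7 groups, lay below 0.5 FPKM in every column.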
